A study of Mus musculus with 12 samples.

Results

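The comparison set 3 Smo* libraries against 3 wild-type (WT) libraries of dermal papilla cells at postnatal day 20 (P20), which is 6 of the 12 libraries of the series. They were chosen by their labels alone, by age and genotype, and all genes were taken. All 6 came from female mice labelled as telogen, when the hair follicle rests. Smo* stands for a gain-of-function form of Smo that the series title describes as specific to the dermal papilla. The driver of that specificity, the allele, the strain, the surface markers of the sort and any treatment are not given in the sources used here. The cells were primary cells sorted by flow cytometry, and ribosomal RNA was removed before stranded libraries were made. The other 6 libraries were 3 WT (anagen VI) and 3 Smo* (anagen I-III) from male mice at P28, in the growth stage, and serve here only beside the P20 values. No label says that the libraries of a group came from separate animals, so p-values below reflect only the variation among these samples, part or all of which may be technical.

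The dermal papilla is a cluster of mesenchymal cells enclosed by the lower end of the hair follicle that signals to the epithelium around it. In the Hedgehog pathway a secreted ligand such as Shh binds the receptor Ptch1, which otherwise holds the membrane protein Smo inactive. Active Smo lets Gli transcription factors switch on target genes, and several of these targets, such as Ptch1 and Hhip, bind the ligand and dampen the pathway. In the follicle the ligand comes from the epithelium and the dermal papilla is a known responding tissue.

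Between 39428285 and 47443932 reads fell on genes in each P20 library. Values are normalized counts, that is reads divided by a size factor of the library, and 1 read was worth 0.871 to 1.13 of them. A gene was called when its adjusted p in limma, a linear model fitted across all genes, lay under 0.05. Fold changes are Smo* over WT on the scale log2(normalized count + 1), which understates the change of genes with low values. Lower RNA of a gene in a bulk library can mean fewer cells of a type or less RNA per cell, and the 2 cannot be told apart here. The fibrillar collagen genes Col1a1, Col1a2 and Col3a1 together took 30.8% to 32.3% of reads in the Smo* libraries and 36.2% to 37.4% in the WT libraries, a difference whose part in the results was not tested.

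In telogen 102 genes were called by limma, and more of them were higher than lower in Smo*. Of 14645 genes tested, these are 0.696%, with 71 higher (0.485%) and 31 lower (0.212%). These shares are the background for the counts of called list members below. DESeq2 on the recovered reads called 480 genes in nearly balanced numbers, 257 higher and 223 lower, with the 102 among them. The adjusted p in the authors' deposited table lay under 0.05 for 342 genes, 223 higher and 119 lower. All 102 are protein coding and lie on 19 chromosomes. Among those that rose, 63 changed at least 2-fold, 26 at least 4-fold and 12 at least 8-fold, with a median of 1.75 on the log2 scale. Among those that fell, 23 changed at least 2-fold, 6 at least 4-fold and 3 at least 8-fold, with a median of -1.32. The median over all tested genes was 0.00. The 3 values of each group did not overlap for any called gene. Such separation was found in 2399 tested genes (16.4%), so it is far wider than the set of calls.

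The size of the set and its balance of directions depended on single libraries. Leaving out Smo* replicate 2 left 19 called genes, WT replicate 2 left 8 and WT replicate 1 left 42. Leaving out Smo* replicate 1 or Smo* replicate 3 gave 129 each, with 31.8% and 58.1% of them higher in place of 69.6%. These were not the same set enlarged: 49 of the 102 were called without Smo* replicate 1 and 67 without Smo* replicate 3. Each of the 102 kept its own sign in each of these 6 fits. When each Smo* library was joined with the WT library of the nearest title number as a replicate block, 239 genes were called, 129 higher and 110 lower, and 100 of the 102 were among them. The 2 that were not are Kcnd3 (limma adjusted p with the block 0.0501) and Col12a1 (0.0524).

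**Figure D1:**
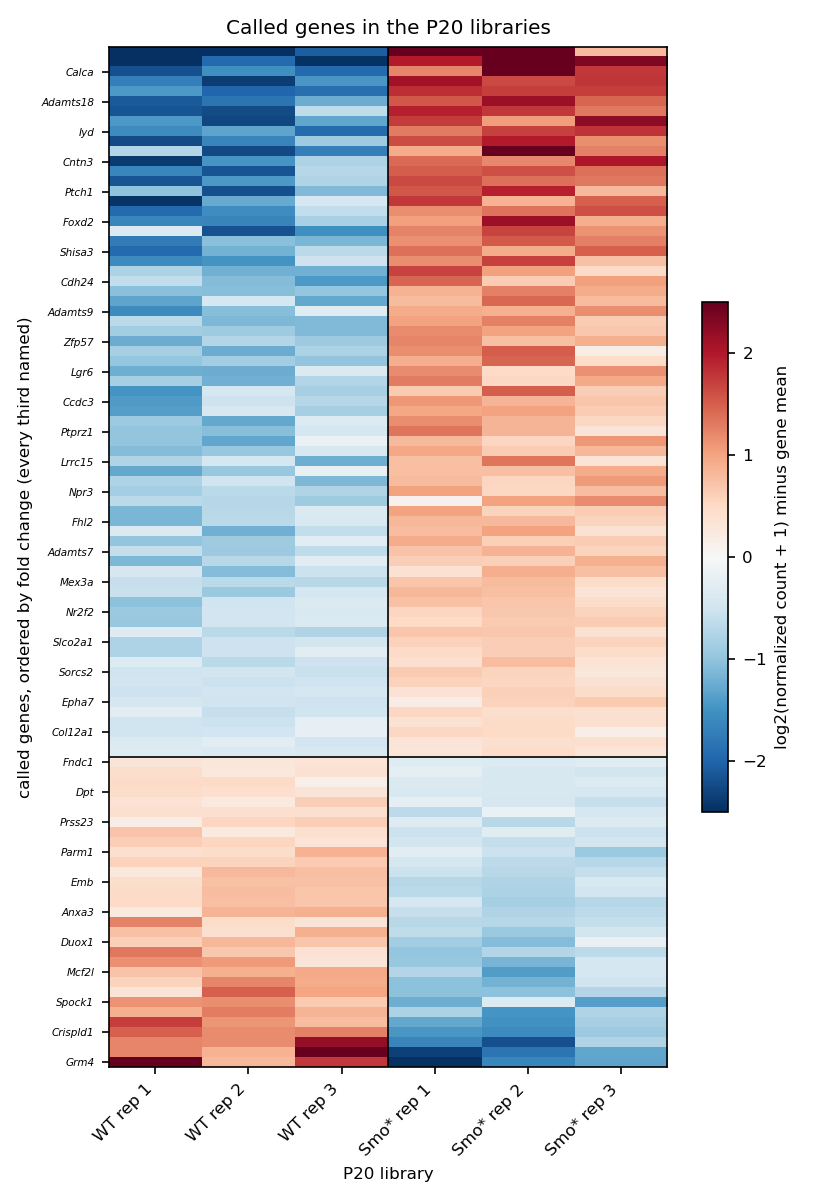
Each row is 1 of the 102 called genes, ordered by log2 fold change with the higher genes above the black horizontal line, and each column is 1 P20 library. Colour is log2(normalized count + 1) minus the gene's mean over the 6 libraries. Among the higher genes, WT replicate 3 is the palest WT column and Smo* replicate 3 the palest Smo* column.

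Within a genotype the called genes were not equally high in each library. Of the 71 that rose, 27 had their highest Smo* value in replicate 1, 31 in replicate 2 and 13 in replicate 3, and 37 had their lowest there. WT replicate 3 held the highest WT value of 37 of the same genes. Of the 31 that fell, 19 had their lowest Smo* value in replicate 2, and 17 had their highest in replicate 3. The SD over the mean had a median of 17.5% in Smo* and 26.0% in WT for the genes that rose. For those that fell it was 14.1% and 17.0%.

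Smo, the gene whose product the mutation activates, stood at 5225, 5037 and 5038 normalized counts in the WT libraries and at 6351, 7528 and 7342 in the Smo* libraries. Every Smo* value lay above every WT value, but the difference did not pass the test (log2 fold 0.47 with SE 0.10, adjusted p = 0.111 by limma). The allele is not given, so whether reads of a mutant copy count here is not known. This level thus does not check the labels by itself.

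Readouts of the pathway were among the genes that rose. Of 19 Hedgehog target genes tested, 6 rose (among them Hhip, Ptch1, Foxd2, Gli1 and Foxd1), 0 fell and 13 did not pass, with a list median of 0.21. Hhip, which binds Hedgehog ligands at the cell surface, stood at 1528, 1039 and 1121 in WT and 14815, 13619.8 and 13606 in Smo*. The Smo* libraries were almost level with each other and far above each WT library (log2 fold 3.53 with SE 0.15, adjusted p = 9.28e-05 by limma). The Hhip call held with each of the 6 libraries left out. The target list as a whole held 1 call without Smo* replicate 2 or WT replicate 2, and 3 without Smo* replicate 1 or WT replicate 1. It held 4 without Smo* replicate 3 and 5 without WT replicate 3.

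Ptch1, the ligand receptor and a feedback target, stood at 5470.2, 2408 and 5095 in WT and 32308, 42346 and 19150.2 in Smo*. WT replicate 2 was the lowest of its group and Smo* replicate 3 the lowest of the other, still above all WT values (log2 fold 2.87 with SE 0.36, adjusted p = 0.0179 by limma). Its call was lost on leaving out Smo* replicate 2 or WT replicate 2 (limma adjusted p = 0.070 to 0.0763). Per kb of exon, the WT means were 135 for Hhip and 305 for Ptch1, and the Smo* means 1544 and 2204, so Ptch1 was the higher of the pair in both genotypes.

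Gli1, the transcription factor that is both an effector and a target, stood at 1277, 1022 and 2245 in WT and 4443, 3665 and 5324 in Smo*. WT replicate 3 was the highest of its group and lay nearest to the Smo* values (log2 fold 1.63 with SE 0.27, adjusted p = 0.0449 by limma). The Gli1 call was lost on leaving out Smo* replicate 1, 2 or 3 or WT replicate 1 or 2 (limma adjusted p = 0.0789 to 0.144). Foxd1 and Foxd2, forkhead transcription factors of mesenchyme, were low in WT. Foxd2 stood at 78.0, 77.0 and 138 in WT and 497, 1069 and 459 in Smo*, where replicate 2 was the highest (log2 fold 2.72 with SE 0.36, adjusted p = 0.0222 by limma). Foxd1 stood at 203, 276 and 363 in WT and 679.6, 672 and 819 in Smo*, with little spread in Smo* (log2 fold 1.40 with SE 0.22, adjusted p = 0.0354 by limma). The calls of the pair were less steady: that of Foxd2 was lost on leaving out Smo* replicate 2 or WT replicate 1 or 2 (limma adjusted p = 0.0540 to 0.0974), and that of Foxd1 was lost on leaving out Smo* replicate 1, 2 or 3 or WT replicate 1 or 2 (limma adjusted p = 0.0633 to 0.140).

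The other 13 tested targets did not pass. Foxc2 came nearest, at 33.9, 22.9 and 52.0 in WT and 58.9, 79.3 and 89.4 in Smo* (log2 fold 1.10 with SE 0.36, adjusted p = 0.285 by limma). The apoptosis regulator Bcl2 had a value of -0.28, the G1 cyclin Ccnd1 0.12, Mycn -0.42, the zinc finger gene Osr1 0.21 and the cell cycle kinase Cdk6 0.02 on the log2 scale, with limma adjusted p from 0.664 to 0.982. Members that respond to the pathway in other tissues were near absent, among them Foxl2 at no more than 2.89 normalized counts and Nkx2-3, which had counts in 1 library only.

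**Figure D2:**
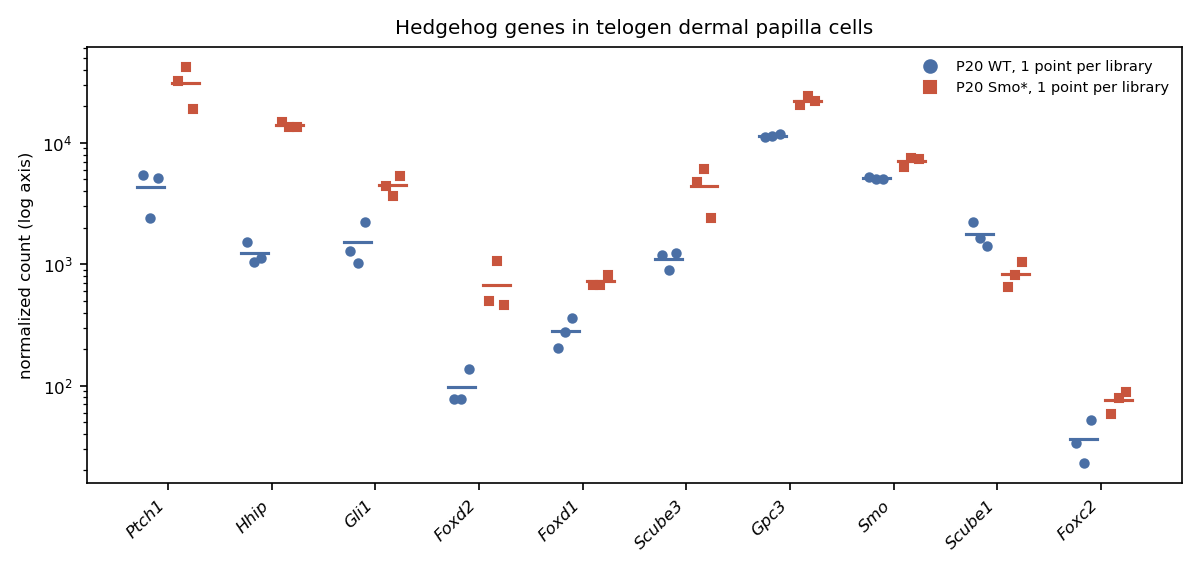
Normalized counts on a log axis, 1 point per P20 library (circles WT, squares Smo*) with a line at each group mean, for 5 called targets, the called components Scube3 and Gpc3, and the uncalled Smo, Scube1 and Foxc2. Among these 10 genes the fold change is largest for Hhip, whose Smo* libraries lie between 13606 and 14815 against 1039 to 1528 in WT.

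The sequence around an annotated start of these genes is shown for the 4 called targets that the RefSeq promoter table (GRCm38.p6) holds, since Gli factors bind DNA at a known consensus. Each window runs from 250 bases before to 50 bases after the annotated start, 5′ to 3′ on the gene's strand, and capitals mark the stretch or stretches with the fewest mismatches to the 9 letters GACCACCCA or their reverse complement TGGGTGGTC. The Ptch1 window is chr13:63565686-63565985, minus strand. It lies inside the gene as GENCODE M21 annotates it, with the 5′ end of the gene at 63573598, so it belongs to an internal start and not to the first one. The Hhip window is chr8:80057959-80058258, minus strand. Foxd2 has chr4:114908849-114909148, minus strand, and Foxd1 chr13:98353995-98354294, plus strand.
Ptch1: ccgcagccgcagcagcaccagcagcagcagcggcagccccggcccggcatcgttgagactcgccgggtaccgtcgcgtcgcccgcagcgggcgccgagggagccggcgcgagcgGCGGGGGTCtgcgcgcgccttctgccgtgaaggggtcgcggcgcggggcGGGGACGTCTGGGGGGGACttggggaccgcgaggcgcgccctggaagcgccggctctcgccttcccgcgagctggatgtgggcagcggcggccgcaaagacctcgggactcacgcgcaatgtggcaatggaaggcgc
Hhip: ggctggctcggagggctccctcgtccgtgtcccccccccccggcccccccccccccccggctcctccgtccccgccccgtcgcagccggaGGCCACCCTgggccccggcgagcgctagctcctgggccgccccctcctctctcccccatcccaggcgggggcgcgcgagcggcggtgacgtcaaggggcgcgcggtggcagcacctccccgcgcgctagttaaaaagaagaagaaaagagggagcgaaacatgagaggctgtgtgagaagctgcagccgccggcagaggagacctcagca
Foxd2: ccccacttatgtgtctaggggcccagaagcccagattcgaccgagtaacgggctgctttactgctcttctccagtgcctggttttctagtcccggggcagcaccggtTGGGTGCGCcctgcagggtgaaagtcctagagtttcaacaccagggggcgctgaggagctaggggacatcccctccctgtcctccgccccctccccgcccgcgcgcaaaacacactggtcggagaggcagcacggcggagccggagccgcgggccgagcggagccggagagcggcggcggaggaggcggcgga
Foxd1: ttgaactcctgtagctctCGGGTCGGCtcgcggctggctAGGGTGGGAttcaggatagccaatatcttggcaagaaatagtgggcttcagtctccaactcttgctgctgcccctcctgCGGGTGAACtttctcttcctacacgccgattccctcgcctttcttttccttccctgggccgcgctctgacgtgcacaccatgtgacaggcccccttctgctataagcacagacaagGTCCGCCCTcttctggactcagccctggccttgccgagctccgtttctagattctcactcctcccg
The best stretch had 2 mismatches in Hhip and in Foxd2, and 3 in Ptch1 and in Foxd1, where 4 stretches tied and some overlap. Of all 11125 tested genes with a promoter in the table, 66.2% had a stretch with at most 2 mismatches and 99.9% one with at most 3, so none of these matches is unusual. The windows held 47 CpG dinucleotides in Ptch1, 30 in Hhip, 26 in Foxd2 and 15 in Foxd1, against a median of 19 over all 14203 sequences.

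An exact copy of the consensus was in the window of 28 of the 11125 genes (0.252%), and a copy with at most 1 mismatch in that of 972 (8.74%). Of the 71 genes that rose, 51 had a promoter in the table, and 0 had either kind of match. Of the 31 that fell, 24 had one, with 0 exact and 1 near match (4.17%). Among 10 Hedgehog target genes with a promoter there were 0 of either kind. This says only that these letters were not in these 300 bases.

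Few of the parts that carry the signal passed the test. Of 22 tested pathway components 2 rose, 0 fell and 20 did not pass (median 0.10). Scube3, a secreted protein that helps to release Hedgehog ligand, stood at 1188, 902 and 1234 in WT and 4730.3, 6068 and 2415 in Smo*, with replicate 3 the lowest Smo* library (log2 fold 1.90 with SE 0.31, adjusted p = 0.0408 by limma). The Scube3 call was lost on leaving out Smo* replicate 1 or 2 or WT replicate 1, 2 or 3 (limma adjusted p = 0.0845 to 0.154). Gpc3, a cell surface proteoglycan that binds Hedgehog ligands, rose from 11135, 11415 and 11776 in WT to 20499.5, 24144 and 22000.4 in Smo* with both groups narrow (log2 fold 0.95 with SE 0.11, adjusted p = 0.0150 by limma). The call of Gpc3 was lost on leaving out WT replicate 2 (limma adjusted p = 0.0783).

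Scube1, a relative of Scube3, lay the other way at 2241, 1639 and 1420.3 in WT and 646, 817 and 1053 in Smo* without passing (log2 fold -1.08 with SE 0.22, adjusted p = 0.0850 by limma). The ligand binding coreceptors Cdon (0.25), Boc (-0.06) and Gas1 (-0.44), the transcription factors Gli2 (0.55) and Gli3 (-0.01) and the inhibitor Sufu (0.14) did not pass either, with limma adjusted p from 0.0944 upward. The ligands were at the floor: Shh had counts in 1 of the 6 libraries, and Ihh and Dhh reached at most 6.78 and 12.8 normalized counts.

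Beyond the pathway itself, the steadiest calls were 7 increases and 1 decrease that held with each library left out. Hhip is among the increases. Clic6 (chromosome 16, 92485736 to 92541243, GRCm38), an intracellular chloride channel protein, stood at 17.0, 28.1 and 19.3 in WT and 443, 763 and 565 in Smo* (log2 fold 4.72 with SE 0.28, adjusted p = 0.000815 by limma). Adamts18 (chromosome 8, 113697126 to 113848738), a secreted metalloproteinase, stood at 44.1, 54.1 and 81.9 in WT and 573, 857 and 533 in Smo* (log2 fold 3.44 with SE 0.28, adjusted p = 0.00296 by limma). In both genes the lowest Smo* library lay several times above the highest WT library.

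Iyd (chromosome 10, 3540240 to 3554877), which recovers iodide from iodotyrosines, stood at 22.6, 27.1 and 17.3 in WT and 171, 227 and 246 in Smo* (log2 fold 3.21 with SE 0.28, adjusted p = 0.00388 by limma). Igfbp4 (chromosome 11, 99041244 to 99054392), a secreted protein that binds insulin-like growth factors and is also described as a Wnt inhibitor, stood at 4238, 6934 and 6458 in WT and 31616, 41338 and 34068 in Smo* (log2 fold 2.62 with SE 0.20, adjusted p = 0.00235 by limma). It was the most abundant of these genes per kb of exon, at 1331 in WT and 8078 in Smo*. Galnt18 (chromosome 7, 111471661 to 111779977), of the family that starts O-linked glycans, stood at 95.0, 93.7 and 100.2 in WT and 361, 473 and 374 in Smo*, with almost no spread in WT (log2 fold 2.04 with SE 0.18, adjusted p = 0.00388 by limma). The imprinted gene Mest stood at 456, 445 and 384 in WT and 1877, 1679 and 1333 in Smo* (log2 fold 1.92 with SE 0.16, adjusted p = 0.00296 by limma).

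Crispld1 (chromosome 1, 17727045 to 17766344), a secreted protein, was the gene that fell in all of these fits. It stood at 4836, 3898 and 4095 in WT and 626, 564 and 911 in Smo*, so that even the highest Smo* library, replicate 3, held well under the lowest WT value (log2 fold -2.63 with SE 0.18, adjusted p = 0.00180 by limma). The other 94 called genes lost the call without at least 1 library. Of the 71 that rose, 64 lost it without WT replicate 2 (highest limma adjusted p 0.198) and 22 without Smo* replicate 3 (highest 0.0950), with the other libraries between them. Of the 31 that fell, 30 lost it without WT replicate 2 (highest 0.194) and 13 without Smo* replicate 3 (highest 0.0800).

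**Figure D3:**
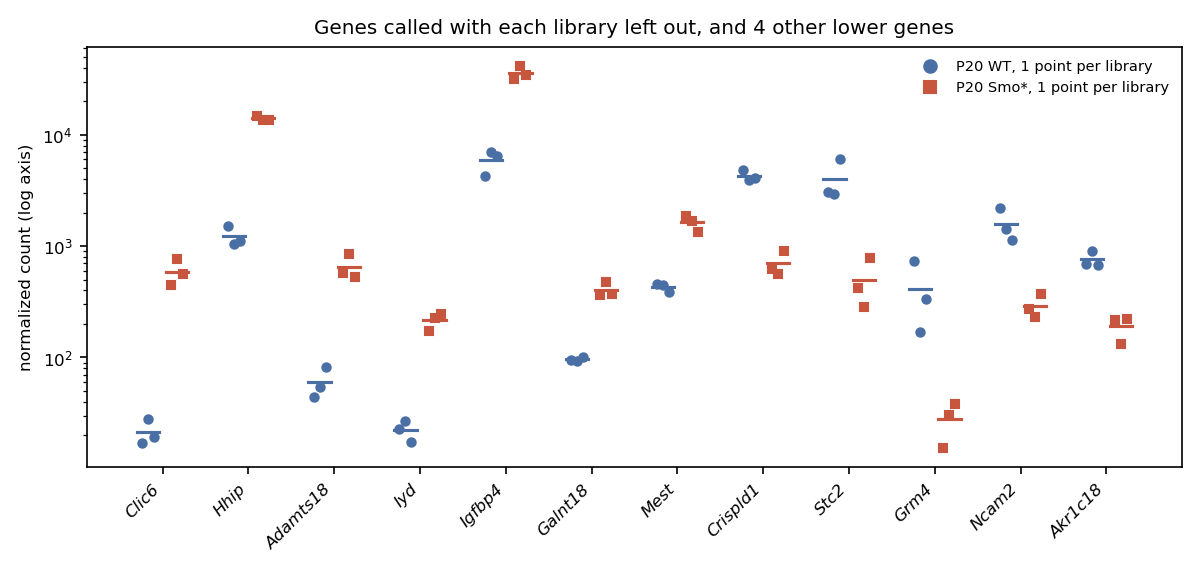
Normalized counts on a log axis, 1 point per P20 library (circles WT, squares Smo*) with a line at each group mean, for the 8 genes called with each library left out and 4 further genes that fell. In none of the 12 do the groups overlap. The Stc2, Grm4 and Ncam2 points spread more within WT than those of Crispld1.

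Among receptor and channel genes best known from neurons, calls were few in number. Their share lay above the 0.696% of all tested genes, but the lists were chosen with earlier results of these data known. Grin2a, a subunit of the NMDA glutamate receptor with the largest increase of all called genes, stood at 3.39, 3.12 and 5.78 in WT and 346, 242 and 47.5 in Smo* (log2 fold 5.01 with SE 0.70, adjusted p = 0.0267 by limma). Smo* replicate 3 was far below the other 2, yet above all WT libraries, and the call was lost on leaving out Smo* replicate 1 or 2 or WT replicate 1 or 2 (limma adjusted p = 0.0550 to 0.129). Of 24 tested glutamate and GABA receptor genes 1 rose and 1 fell (median -0.02). The one that fell, Grm4, a metabotropic glutamate receptor, stood at 737, 171 and 332 in WT and 15.5, 30.5 and 38.3 in Smo*, and its WT libraries spread widely (log2 fold -3.67 with SE 0.53, adjusted p = 0.0290 by limma). Grm7, another member of that family, was at 0, 0 and 1.93 in WT and 21.7, 30.5 and 21.9 in Smo* and just missed the threshold (limma adjusted p = 0.0512).

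Of 43 tested potassium, sodium and calcium channel genes 1 rose and 1 fell (median -0.05). The potassium channel gene Kcnd3 stood at 64.4, 49.95 and 96.4 in WT and 276, 221 and 177 in Smo* (log2 fold 1.69 with SE 0.29, adjusted p = 0.0496 by limma), a bare pass that the replicate block ended. Kcnn3, a calcium-activated potassium channel, stood at 1019, 958 and 572 in WT and 237, 204 and 341 in Smo* (log2 fold -1.69 with SE 0.27, adjusted p = 0.0367 by limma). Clic6 was the gene called among 20 chloride channels and anion transporters. Syt6, a synaptotagmin of membrane traffic, rose from 3.39, 3.12 and 11.6 in WT to 74.4, 65.3 and 47.5 in Smo* (log2 fold 3.35 with SE 0.54, adjusted p = 0.0403 by limma). The calls of Grm4, Kcnd3 and Syt6 held in 1 of the 6 fits with a library left out, and that of Kcnn3 in 2.

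Adhesion and guidance genes held 4 calls. Of 52 tested neural adhesion genes and cadherins, Cntn3 rose and Ncam2 fell (median -0.15). Cntn3, a contactin, stood at 3.39, 7.28 and 12.5 in WT and 60.9, 52.3 and 93.1 in Smo* (log2 fold 3.10 with SE 0.51, adjusted p = 0.0442 by limma). Ncam2, a neural cell adhesion molecule, stood at 2194, 1416 and 1129 in WT and 273, 232 and 369.6 in Smo*, and Smo* replicate 3 was the highest of its group (log2 fold -2.41 with SE 0.26, adjusted p = 0.0134 by limma). Its call was lost on leaving out Smo* replicate 2 or WT replicate 2 (limma adjusted p = 0.0525 to 0.0745).

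Of 46 tested axon guidance genes, the ephrin receptor Epha7 rose, the semaphorin Sema5a fell and 44 did not pass (median 0.17). Epha7 stood at 595, 563 and 554 in WT, nearly level, and at 898, 1187 and 1249 in Smo* (log2 fold 0.95 with SE 0.15, adjusted p = 0.0367 by limma). Sema5a stood at 13213, 8489.7 and 6857 in WT and 2701, 3197 and 3386 in Smo*, with WT replicate 1 the highest (log2 fold -1.57 with SE 0.22, adjusted p = 0.0274 by limma). Sema3d came nearest among the rest, at 2672, 2184 and 1822 in WT and 1271, 1232 and 1086 in Smo* (log2 fold -0.88 with SE 0.15, adjusted p = 0.0509 by limma). Epha7 kept its call in 1 of the 6 fits with a library left out, and Sema5a in 3.

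Some secreted proteases of the ADAMTS family rose. Of 48 tested ADAM, ADAMTS and MMP proteases and their inhibitors, 4 rose (Adamts18, Adamts9, Adamts15 and Adamts7), 0 fell and 44 did not pass, with a list median of -0.01. Among all tested genes 0.485% rose and 0.212% fell. Adamts15, which cleaves proteoglycans, stood at 2764, 5698 and 4356 in WT and 12135, 21997 and 11821 in Smo* (log2 fold 1.84 with SE 0.31, adjusted p = 0.0446 by limma). Adamts9, of the same kind, stood at 651, 939.7 and 1601 in WT and 3752, 3641 and 4434 in Smo*, the WT values rather spread (log2 fold 1.98 with SE 0.28, adjusted p = 0.0283 by limma). Adamts7 stood at 439.7, 355 and 432 in WT and 1089, 1220.4 and 980.2 in Smo*, both groups narrow (log2 fold 1.42 with SE 0.14, adjusted p = 0.0102 by limma). The call of Adamts7 was lost on leaving out WT replicate 2 (limma adjusted p = 0.0574), while Adamts9 lost its call in 3 such fits and Adamts15 in 5. The uncalled Adam12 lay at 3712, 3425 and 2980.4 in WT and 6358, 6856 and 4255 in Smo* (limma adjusted p = 0.138).

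Matrix genes lay more often below 0 than above it, a lean that depended on the scaling, while single ones rose. Under quantile normalization the median was 0.00 for collagens and -0.07 for matrix proteoglycans and glycoproteins. Of 39 tested collagens, Col2a1 and Col12a1 rose, 0 fell and 27 lay below 0 (median -0.14). Col2a1, the main collagen of cartilage, stood at 27.1, 51.0 and 27.9 in WT and 121, 189.9 and 120.5 in Smo* (log2 fold 2.02 with SE 0.34, adjusted p = 0.0446 by limma), and its call was lost on leaving out Smo* replicate 1, 2 or 3 or WT replicate 1, 2 or 3 (limma adjusted p = 0.0640 to 0.185). Col12a1 stood at 4127, 4166 and 5077 in WT and 8293, 8267 and 6568 in Smo* (log2 fold 0.79 with SE 0.14, adjusted p = 0.0496 by limma).

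Of 58 tested matrix proteoglycans and glycoproteins 3 rose, 3 fell and 44 lay below 0 (median -0.24). Hapln3, a link protein of hyaluronan, stood at 130.0, 259 and 191 in WT and 666, 682 and 529 in Smo* (log2 fold 1.74 with SE 0.25, adjusted p = 0.0290 by limma). Smoc1, a secreted modulator of BMP signals, stood at 330.1, 449.6 and 565 in WT and 1472, 1072 and 1131 in Smo* (log2 fold 1.47 with SE 0.21, adjusted p = 0.0290 by limma), and Gpc3 was the third that rose. Spock1, a secreted proteoglycan, fell from 1115, 1146 and 808 in WT to 220.0, 402 and 196 in Smo* (log2 fold -1.96 with SE 0.27, adjusted p = 0.0265 by limma). Spon1, an F-spondin, fell from 16035, 11539.8 and 12960.3 in WT to 6704, 7938 and 6753 in Smo* (log2 fold -0.91 with SE 0.14, adjusted p = 0.0367 by limma), and Crispld1 was the third that fell. Hapln3 and Smoc1 kept the call in 2 fits with a library left out, Spock1 in 3 and Spon1 in 0.

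Enzymes that build sugar chains supplied 3 increases. Of 44 tested O-glycosylation, sialyl and sulfo transferases, Galnt18, Galnt3 and Hs6st2 rose, 0 fell and 30 lay below 0 (median -0.16). Galnt3, another starter of O-linked glycans, stood at 21.5, 14.6 and 41.4 in WT and 196, 212 and 179 in Smo*, where the 3 libraries were close together (log2 fold 3.00 with SE 0.37, adjusted p = 0.0179 by limma). Its call was lost on leaving out Smo* replicate 2 or WT replicate 1 or 2 (limma adjusted p = 0.0555 to 0.0954). Hs6st2, which adds sulfate to heparan sulfate, stood at 114, 122 and 112 in WT, nearly level, and at 420.4, 618 and 307 in Smo* (log2 fold 1.88 with SE 0.25, adjusted p = 0.0225 by limma), and its call was lost on leaving out Smo* replicate 2 or WT replicate 1, 2 or 3 (limma adjusted p = 0.0559 to 0.0931).

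Of 38 tested forkhead, Sox, Tbx and Hox partner genes, Foxd2, Sox18, Runx2 and Foxd1 rose and 0 fell (median 0.10). Sox18, known in the dermal papilla and in vessels, stood at 599, 207 and 303 in WT and 1909, 5689 and 2403 in Smo*, where replicate 2 was far the highest (log2 fold 3.14 with SE 0.46, adjusted p = 0.0309 by limma). The call of Sox18 was lost on leaving out Smo* replicate 2 or WT replicate 2 or 3 (limma adjusted p = 0.0822 to 0.110). Runx2, a regulator of bone and of mesenchyme, stood at 744, 590.1 and 652 in WT and 1251, 1605 and 1191 in Smo* (log2 fold 1.02 with SE 0.15, adjusted p = 0.0325 by limma). Sox4 came nearest among the rest, at 1639, 1417 and 1808 in WT and 3347, 3751 and 2419 in Smo* (limma adjusted p = 0.0609).

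The homeobox gene Alx4 rose too. It stood at 2908, 2833 and 2498 in WT and 4983, 9395 and 10514 in Smo*, with replicate 1 the lowest of its group (log2 fold 1.53 with SE 0.25, adjusted p = 0.0446 by limma), and its call held in 1 of the 6 fits with a library left out. Other regulators outside the lists were the nuclear receptor Nr2f2, which stood at 782, 1058 and 1143 in WT and 2148, 2373 and 2183 in Smo* (log2 fold 1.18 with SE 0.15, adjusted p = 0.0193 by limma), and the zinc finger gene Bnc2 (1.26, limma adjusted p = 0.0325).

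Wnt signal genes held 4 calls. Of 33 tested Wnt ligands, R-spondins and receptors, Lgr4 and Lgr6 rose, 0 fell and 31 did not pass (median 0.05), and without WT replicate 2 none was called. Both are receptors of R-spondins, which strengthen Wnt signals. Lgr6 stood at 1931, 1903 and 3469 in WT and 10157, 6307 and 9925 in Smo* (log2 fold 1.88 with SE 0.27, adjusted p = 0.0274 by limma). Lgr4 stood at 3252, 2662 and 2800.2 in WT and 5692, 5393 and 5242 in Smo*, with narrow groups (log2 fold 0.91 with SE 0.11, adjusted p = 0.0169 by limma). The Lgr6 call was lost on leaving out Smo* replicate 1 or WT replicate 1 or 2 (limma adjusted p = 0.0555 to 0.110), and the Lgr4 call was lost on leaving out Smo* replicate 2 or WT replicate 2 (limma adjusted p = 0.0649 to 0.0783).

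Of 15 tested secreted Wnt inhibitors, Igfbp4 and Frzb rose and 0 fell (median 0.36). The median was 0.08 without Smo* replicate 1 and -0.25 with a minimum mean of 50. The list was split in direction, with 8 members above 0 and 7 below. In 11 of the 15 the groups did not overlap, a larger share than the 16.4% of all tested genes. Frzb, a decoy that binds Wnt proteins, stood at 295, 165 and 249.6 in WT and 649.6, 770.1 and 499 in Smo* (log2 fold 1.45 with SE 0.25, adjusted p = 0.0485 by limma). Its call was lost on leaving out Smo* replicate 1 or 2 or WT replicate 1, 2 or 3 (limma adjusted p = 0.0633 to 0.184). Sost, which blocks Wnt coreceptors, was at 19.2, 11.4 and 14.5 in WT and 68.2, 129.8 and 53.8 in Smo* and did not pass (log2 fold 2.33 with SE 0.42, adjusted p = 0.0562 by limma). Notum, an enzyme that inactivates Wnt proteins, varied widely, at 10074, 8373 and 5271 in WT and 309.8, 543 and 5606 in Smo*, with replicate 3 inside the WT range (log2 fold -2.96 with SE 0.91, adjusted p = 0.253 by limma). Of 15 tested Wnt/beta-catenin target genes 0 rose and 0 fell, with a median of 0.01.

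Other signal groups held single calls. Of 18 tested genes of the insulin-like growth factor system, Igfbp4 rose and Stc2 fell (median -0.17, and 0.01 under quantile normalization). Stc2 (chromosome 11, 31357307 to 31370074), a secreted glycoprotein that inhibits the protease which frees these growth factors, stood at 3031, 2965 and 6033 in WT and 416, 286 and 775 in Smo*, with replicate 3 the highest in both groups (log2 fold -3.06 with SE 0.38, adjusted p = 0.0179 by limma). The call of Stc2 was lost on leaving out Smo* replicate 2 or WT replicate 2 (limma adjusted p = 0.0649 to 0.0774). Of 21 tested Notch pathway genes, 1 rose and 16 lay above 0 (median 0.58). The one that rose was Dner, a transmembrane protein described as a Notch ligand, at 20.3, 34.3 and 55.9 in WT and 297, 247 and 236 in Smo* (log2 fold 2.89 with SE 0.35, adjusted p = 0.0175 by limma), and its call was lost on leaving out Smo* replicate 2 or WT replicate 2 (limma adjusted p = 0.0783 to 0.0833). The receptor gene Notch1 (1.12) and the target genes Heyl (0.95) and Hey1 (0.90) did not pass.

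No gene passed among 31 BMP genes (22 below 0, median -0.17), 18 TGF-beta and activin genes (14 below 0, -0.25), 27 FGF genes (20 below 0, -0.19), 22 genes of PDGF, HGF, VEGF and KIT signals (14 below 0, -0.15) and 18 retinoid genes (10 below 0, -0.07). Under quantile normalization the TGF-beta median was -0.11 and the FGF median -0.05, and with the replicate block 3 TGF-beta genes, 1 FGF gene and 2 of the PDGF group were called lower and 1 retinoid gene higher. An unadjusted p under 0.05 was found for 12 BMP genes, 9 TGF-beta and activin genes, 5 FGF genes, 9 of the PDGF group and 4 retinoid genes. Each is a larger share than the 1669 of 14645 among all tested genes. For the FGF and retinoid genes this rests on few genes, and no list was tested as a set. The FGF receptor ligand gene Fgf5, known to limit the growth stage of hair, was at 0, 2.08 and 2.89 in WT and 11.4, 34.0 and 27.4 in Smo* (limma adjusted p = 0.128). Wnt5b (0.87) and the BMP antagonist Chrd (-0.50) did not pass either.

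Enzymes of hormone, iodide and prostaglandin metabolism were among the genes that fell. Of 24 tested steroid, thyroid and iodide enzymes 1 rose (Iyd) and 3 fell (Akr1c18, Duox1 and Duox2), with a median of -0.31. Akr1c18, a steroid dehydrogenase that inactivates progesterone, stood at 691, 908 and 678 in WT and 217, 133 and 219.9 in Smo* (log2 fold -2.02 with SE 0.23, adjusted p = 0.0150 by limma), and its call was lost on leaving out WT replicate 2 (limma adjusted p = 0.0783). Pgr, the progesterone receptor, was at 27.1, 62.4 and 47.2 in WT and 230.3, 191 and 121 in Smo* (limma adjusted p = 0.0609).

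Duox1 and Duox2, oxidases that make hydrogen peroxide, lie 17223 bases apart on chromosome 2. Duox1 stood at 866, 1013 and 928 in WT and 313, 267 and 501 in Smo* (log2 fold -1.42 with SE 0.22, adjusted p = 0.0367 by limma). Duox2 stood at 193, 151 and 859.5 in WT and 15.5, 22.6 and 32.9 in Smo*, and WT replicate 3 alone made most of the WT mean (log2 fold -3.64 with SE 0.62, adjusted p = 0.0476 by limma). Both calls held in 1 of the 6 fits with a library left out. Among the called genes one other pair lay within 100 kb of each other, Ptch1 and the DNA repair gene Fancc, 11050 bases apart on chromosome 13. Fancc stood at 773, 748 and 731 in WT and 1200.1, 1326 and 1216 in Smo* (log2 fold 0.73 with SE 0.11, adjusted p = 0.0309 by limma).

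Of 17 tested prostaglandin genes 1 fell and 12 lay below 0 (median -0.37). Ptgis, prostacyclin synthase, stood at 625, 764 and 717 in WT and 279, 256 and 319 in Smo* (log2 fold -1.30 with SE 0.15, adjusted p = 0.0150 by limma). Its call was lost on leaving out Smo* replicate 2 or WT replicate 2 (limma adjusted p = 0.0608 to 0.0783). Ptges, which makes prostaglandin E, was at 7091, 6691 and 7242 in WT and 3793, 2786 and 4574 in Smo* and did not pass (limma adjusted p = 0.0588), whereas the prostaglandin transporter gene Slco2a1 rose from 935, 1115 and 1148 in WT to 2358, 2426 and 2333 in Smo* (log2 fold 1.16 with SE 0.11, adjusted p = 0.00942 by limma). The Slco2a1 call was lost on leaving out WT replicate 2 (limma adjusted p = 0.0574).

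Further decreases were spread over other functions. Pnpla3, a lipase, fell from 128, 289 and 202 in WT to 49.6, 49.7 and 61.1 in Smo* (log2 fold -1.86 with SE 0.31, adjusted p = 0.0458 by limma) and was the gene called among 30 sterol and fatty acid synthesis genes (median -0.06). Il33, an alarm cytokine of barrier tissues, fell from 335, 485 and 464 in WT to 190.0, 172 and 184 in Smo* (log2 fold -1.21 with SE 0.18, adjusted p = 0.0325 by limma) and was the call among 36 chemokines, interleukins and complement genes, of which 28 lay below 0 (median -0.45). Plau, the urokinase protease, stood at 1834, 2174 and 2104 in WT and 966, 731 and 792 in Smo* (log2 fold -1.30 with SE 0.14, adjusted p = 0.0129 by limma) and kept its call in 5 of the 6 fits. The phosphatase gene Dusp2 stood at 482, 379 and 536 in WT and 186, 151 and 209 in Smo* (log2 fold -1.35 with SE 0.20, adjusted p = 0.0290 by limma). Il33, Pnpla3 and Dusp2 held in 1 of them.

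Of 40 tested regulators of small G proteins and G protein signalling, Arhgap8 rose and Mcf2l fell (median -0.16). Arhgap8, a GTPase activating protein, stood at 15.8, 8.33 and 17.3 in WT and 152, 92.3 and 212 in Smo* (log2 fold 3.35 with SE 0.42, adjusted p = 0.0179 by limma). Mcf2l, an exchange factor, stood at 176, 199.8 and 206 in WT and 64.0, 40.1 and 78.5 in Smo* (log2 fold -1.71 with SE 0.28, adjusted p = 0.0439 by limma). Lurap1l (-1.80, limma adjusted p = 0.0310) and Limch1 (-1.34, limma adjusted p = 0.0477) fell as well. Clstn2, a calsyntenin, stood at 49.7, 114 and 206 in WT and 942, 507 and 775 in Smo* (log2 fold 2.75 with SE 0.47, adjusted p = 0.0477 by limma), and Ajap1, a junction protein, at 89.3, 118 and 225 in WT and 777, 887 and 1063 in Smo* (log2 fold 2.75 with SE 0.32, adjusted p = 0.0150 by limma).

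**Figure D4:**
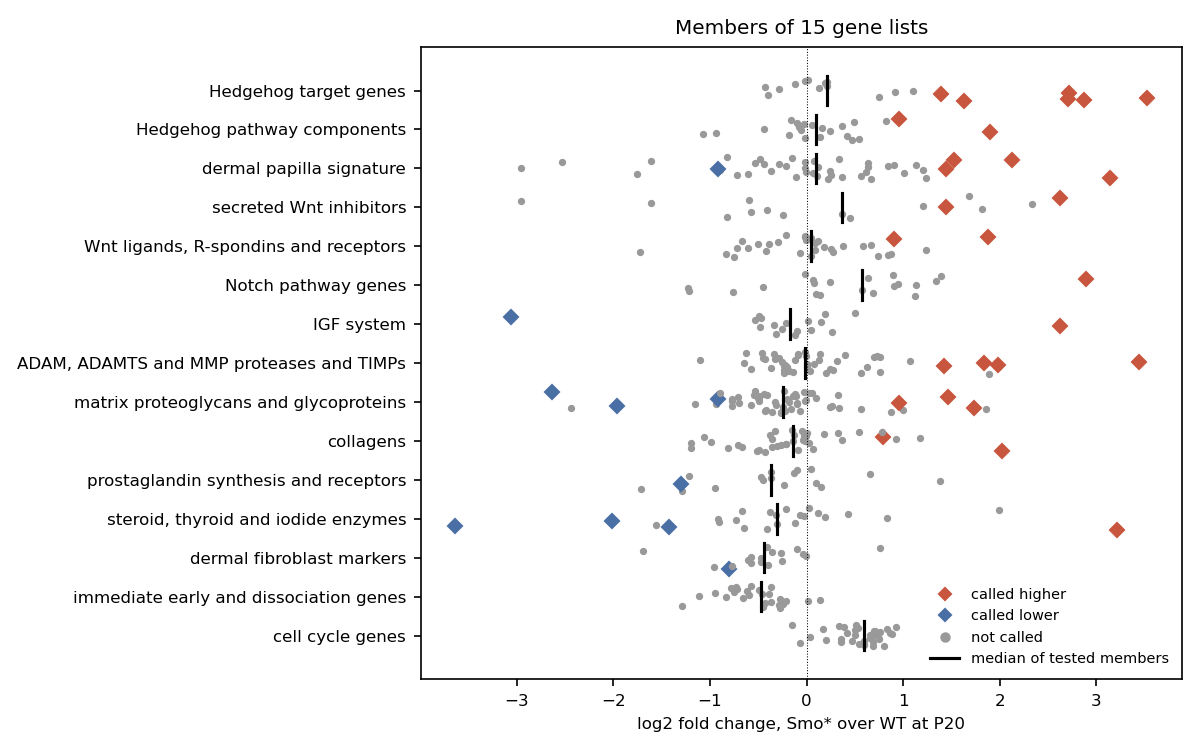
Each point is 1 tested member of 1 of 15 gene lists, placed by its log2 fold change at P20 (red diamonds called higher, blue diamonds called lower, grey points not called), and the black bar is the median of the tested members. The 6 called Hedgehog targets lie between 1.40 and 3.53, the dermal fibroblast markers almost all lie left of 0, and the cell cycle genes right of it.

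The labelled cell type was checked against its markers. Of 44 dermal papilla signature genes, all were tested, 4 rose (among them Sox18, Alx4 and Frzb), 1 fell (Spon1), and the median was 0.10. Leaving out Smo* replicate 2, WT replicate 2 or WT replicate 3 left 0 called, and the median ranged from -0.06 without WT replicate 2 to 0.28 without WT replicate 1. Corin, a membrane protease of the dermal papilla, stood at 457, 766 and 416 in WT and 1044, 785 and 711 in Smo*. Sox2 stood at 83.7, 91.6 and 136 in WT and 192, 354 and 203 in Smo* (limma adjusted p = 0.137), and the matrix proteoglycan Vcan at 20007, 21241 and 20744 in WT and 27738, 30990.5 and 33148 in Smo* (limma adjusted p = 0.0881). Alkaline phosphatase, Alpl, stood at 526, 1235 and 816 in WT and 871, 842 and 1151 in Smo* and overlapped. These 4 markers were present in each library of both genotypes, and their differences between genotypes did not pass. In the whole list 24 genes lay above 0 and 20 below. The groups did not overlap in 21, a larger share than the 16.4% of all tested genes. An unadjusted p under 0.05 was found for 23, again a larger share than among all tested genes (1669 of 14645).

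Some dermal papilla genes varied strongly among the Smo* libraries. Crabp1, a retinoic acid binding protein, stood at 7581, 6291 and 3415 in WT and 668, 1674 and 3759 in Smo*, and the anion transporter gene Slc26a7 at 33679, 23822 and 24020.5 in WT and 1848, 3664 and 14553 in Smo*. In both, as in Notum, Smo* replicate 3 held the highest Smo* value and none passed (limma adjusted p = 0.269, 0.146 and 0.253). The choice of these 3 was made after their values were seen.

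Markers of dermal fibroblasts were abundant in both genotypes and lay mostly lower in Smo*. Of 18 tested, 1 fell, 0 rose and 17 lay below 0 (median -0.44). The one that fell, Dpt, a matrix protein of the dermis, stood at 27013, 26400.4 and 24822 in WT and 15249, 15007 and 14618 in Smo* (log2 fold -0.80 with SE 0.10, adjusted p = 0.0184 by limma), and its call was lost on leaving out Smo* replicate 2 or WT replicate 1 or 2 (limma adjusted p = 0.0633 to 0.0974). Dpp4, a surface peptidase used as a fibroblast marker, was at 6449, 5692 and 6105 in WT and 2997, 3567 and 4206 in Smo* and narrowly did not pass (limma adjusted p = 0.0544). The summed level of the list was 708620 to 726880 in WT and 506850 to 573167 in Smo*. Per kb of exon, Dpt stood at 15127 in WT and 8676 in Smo*, and Lum at 25951 in WT and 21812 in Smo*. Corin stood at 101 in WT and 157 in Smo*, but it is 1 papilla marker and does not stand for its list. The summed level of the dermal papilla signature was 277103 to 430957 in WT and 284640 to 348562 in Smo*. Fibroblast genes were thus abundant in all libraries beside papilla genes, and their part in the matrix results was not tested.

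Among markers of dermal sheath and smooth muscle (14 tested), 1 rose and 13 lay below 0 (median -0.24, and 0.09 without WT replicate 3). Myocd, which drives smooth muscle genes, was the one that rose, at 536, 416 and 570.4 in WT and 2337, 1366 and 1849 in Smo* (log2 fold 1.84 with SE 0.21, adjusted p = 0.0150 by limma), and its call was lost on leaving out WT replicate 2 (limma adjusted p = 0.0745). The contractile gene Tagln stood at 664, 1334 and 1823 in WT and 968, 624 and 863 in Smo* and overlapped. The list sum was 20642 to 40923 in WT and 22601 to 33110.3 in Smo*. No pericyte marker of 9 passed (6 below 0, median -0.19, and 0.17 without WT replicate 3, list sum 22328 to 35527 in WT and 23455 to 33052 in Smo*).

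Other cell types left traces in these libraries. No gene passed among 13 keratinocyte markers (10 below 0, median -0.66), whose summed level was 2833 to 5371 in WT and 3402 to 5003 in Smo*. The basal keratin Krt14 stood at 6.78, 35.4 and 219.7 in WT and 35.1, 12.2 and 5.48 in Smo*, highest in WT replicate 3. No gene passed among 13 endothelial markers either (10 below 0, median -0.38, summed level 5494 to 8506 in WT and 5801 to 6894 in Smo*). Pecam1 stood at 83.7, 214 and 627 in WT and 102, 44.4 and 164 in Smo*, again highest in WT replicate 3, while Kdr stood at 461, 592 and 451 in WT and 1072, 1039 and 804 in Smo* (limma adjusted p = 0.0517).

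Of 8 tested immune markers 0 passed (7 below 0, median -1.73), while the replicate block called 3 lower, with a summed level of 801 to 2371 in WT and 486 to 1161 in Smo*. The macrophage gene C1qa stood at 30.5, 149 and 20.2 in WT and 37.2, 0.871 and 1.83 in Smo*, highest in WT replicate 2, and the T cell gene Cd3g was at 0 in all 6 libraries. Adipocyte markers, 8 of 9 above 0 (median 0.37), gave 0 calls, and the adipokine gene Adipoq stood at 2.26, 35.4 and 72.3 in WT and 155, 0 and 270.1 in Smo*, highest in Smo* replicates 1 and 3. The summed level of the adipocyte list was 14790 to 20140.1 in WT and 18792 to 23781 in Smo*. The library with the most of such a marker thus differed from marker to marker, and the part of such cells in the calls was not tested.

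Fewer markers of the remaining types were measurable, and none passed. For hair matrix, inner root sheath and shaft, 2 of 15 measured markers could be tested and 5 were at 0 in all 6 libraries, among them the shaft keratins Krt31 and Krt86. Of melanocyte markers 5 were tested (median -0.46, and 0.04 with a minimum mean of 50), of Schwann cell markers 7 (0.12, and -0.29 without WT replicate 1 or 0.50 without WT replicate 3), of lymphatic endothelial markers 4 (-0.20), of skeletal muscle markers 5 (0.57) and of erythroid markers 2 (-0.73). Their summed levels were 1617 to 2064 in WT and 1152 to 1708 in Smo* for melanocytes, 621 to 1271 and 949.5 to 1845 for Schwann cells, and 55.2 to 113 and 29.2 to 55.8 for erythroid cells. For lymphatic endothelium they were 2915 to 3227 and 2035 to 3523, and for skeletal muscle 900 to 1972 and 982 to 1183.

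Markers of cell state lay mostly to one side of 0 without passing. Of 34 cell cycle genes 32 lay above 0 and 0 passed (median 0.60), with 4 at an unadjusted p under 0.05. That is a share near the 1669 of 14645 among all tested genes. Mcm7, a part of the replication helicase, came nearest, at 626, 747 and 694 in WT and 1074, 1252 and 956 in Smo* (limma adjusted p = 0.0932). Of 26 immediate early genes, which respond to tissue dissociation, 24 lay below 0 and 0 passed (median -0.48). In this list 10 had an unadjusted p under 0.05, a larger share than among all tested genes. Their summed level was 677895 to 731067 in WT and 485566 to 597293 in Smo*, and the part of handling in the calls was not tested. Klf2 came nearest of these, at 3402, 3679.8 and 3006 in WT and 1545, 2067 and 1154 in Smo* (limma adjusted p = 0.0567).

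Of 38 cytosolic ribosomal protein genes 37 lay below 0 by a small amount (median -0.13), of 23 glycolysis and hypoxia genes 17 (median -0.05) and of 20 interferon-stimulated genes 16 (median -0.27), with 0 calls in each. The first 2 of these leans depended on the scaling: under quantile normalization the ribosomal median was 0.00 and the glycolysis median 0.02.

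The same genes were then read at P28, where the Smo* effect comes with a labelled stage gap (anagen I-III against anagen VI) and with male mice. No library is shared between the 2 ages. All 71 genes that rose at P20 were tested at P28, 56 had the same sign, and 34 (47.9%) were called higher there, against 4.05% of all genes tested at P28. Another 6 (8.45%) were called lower there, against 4.85% of all genes. Leaving out single P28 libraries gave 26 to 41 in place of the 34, with 41 without P28 Smo* replicate 3, the library with the fewest genes detected (15453 against 17418 or more in the other P28 libraries).

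The genes that fell at P20 were less shared. Of the 31, 17 had the same sign at P28, 7 (22.6%) were called lower and 3 (9.68%) higher, with a median log2 fold change at P28 of -0.02. For the genes that rose, the P28 median was 1.07. Whether the genes that rose and those that fell differ in this respect was not tested.

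Hedgehog readouts split by age. At P28 the fold change of Gli1 was 1.52 (limma adjusted p = 0.000237), that of Ptch1 1.51 (0.0152) and that of Foxd2 2.73 (0.00153), so these 3 were called at both ages. The difference between ages did not pass for any of them, with limma adjusted p from 0.146 for Ptch1 upward. Hhip did differ: from 40696 ± 3544 in WT at P28 it went to 30588 ± 20379 in Smo* (SD, n = 3), a log2 fold change of -0.73 that did not pass (limma adjusted p = 0.430). The P20 effect exceeded it by 4.26 (SE 0.63, limma adjusted p = 0.00359). Foxd1 differed the other way, with 3.12 at P28 (difference -1.72, limma adjusted p = 0.00857).

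In the fit of all 12 libraries, 698 of 14790 genes (4.72%) had an effect that differed between ages. They included 21 of the 71 that rose at P20, of which 18 had a smaller or opposite effect at P28 and 3 a larger one. They included 13 of the 31 that fell, 12 of them smaller or opposite at P28. Because these genes were chosen for a P20 effect, a smaller P28 effect is favoured by that choice, and the counts are a description. Age, sex and stage change together between the 2 comparisons, and their parts cannot be told apart.

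Several genes went in opposite directions at the 2 ages and were called at both. Galnt3 had -2.49 at P28 against 3.00 at P20 (P28 limma adjusted p = 0.000529). Alx4 had -1.39 against 1.53, Smoc1 -1.31 against 1.47, Ajap1 -0.96 against 2.75, Kcnd3 -1.41 against 1.69 and Fblim1 -1.01 against 1.44. Among those that fell at P20, Spock1 had 1.63 at P28, Dusp2 1.60 and Sema5a 0.65. For all 9 the difference between ages passed, with limma adjusted p from 7.96e-05 for Galnt3 to 0.00350 for Alx4.

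Other genes were called in the same direction at both ages. Clic6 had 3.57 at P28, Iyd 5.06, Galnt18 2.65, Lgr6 2.12, Dner 3.70, Mest 2.56 and Gpc3 1.53, each called there (limma adjusted p up to 0.00514), and none of their differences between ages passed. Of the genes that fell, Ncam2 (-3.19), Kcnn3 (-3.25), Pnpla3 (-3.47) and Spon1 (-2.41) were called lower at P28 as well. Stc2, by contrast, had -0.13 at P28, and its difference between ages was -2.93 (SE 0.49, limma adjusted p = 0.00687). A missed threshold does not show that 2 effects are equal.

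**Figure D5:**
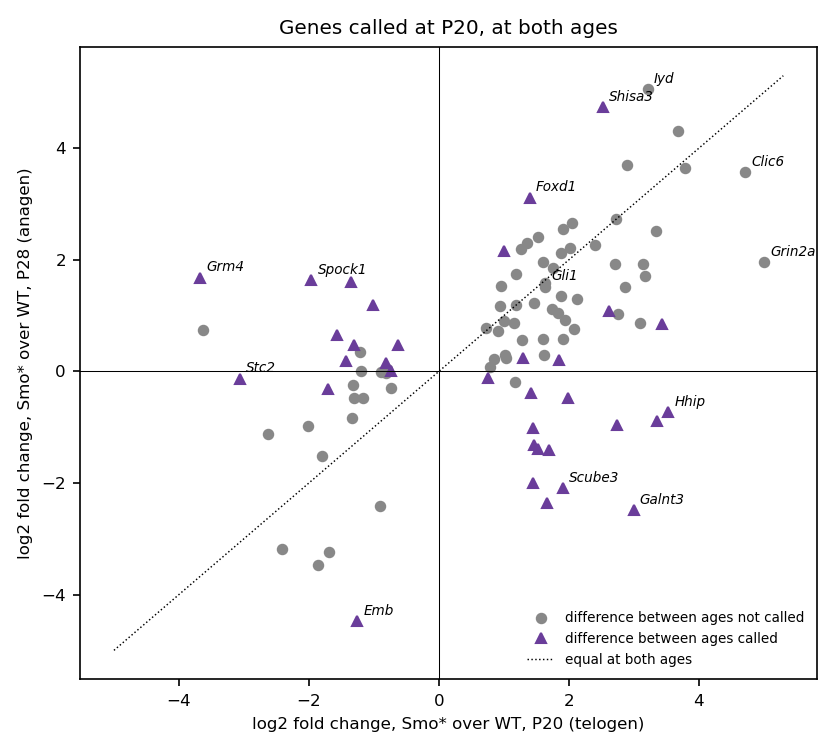
Each point is 1 of the 102 genes called at P20, with its log2 fold change (Smo* over WT) at P20 on the x axis and at P28 on the y axis; triangles mark the 34 genes whose difference between ages passed, and the dotted line is equality. Iyd and Clic6 lie in the upper right, Galnt3 and Scube3 below 0 at P28, and Grm4 and Spock1 above 0 there.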

How the data were processed

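RNA of sorted dermal papilla cells was sequenced in 12 libraries, of which the 6 of P20 are compared. Per the submitters' processing notes, the tools were Trimmomatic, TopHat2 (version 2), HTSeq and DESeq2, in no stated order, on mm10 or GRCm38.p4. Whether strand entered the counting is not stated there or in the labels, so overlapping genes may share reads. The tables deposited by the authors hold 25887 Ensembl gene identifiers each, with counts divided by size factors (a signal, in normalized counts), a log2 fold change (WT over Smo*, turned round here), a test statistic per gene (a score) and p-values. GENCODE M21 named 25562 identifiers (98.7%). In every library 100% of the values were whole reads times 1 factor, within 0.01 reads, so the reads were recovered.

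The main test was limma (3.58.1, under R 4.3.3) with its trend option, run on log2(normalized count + 1) for genes with a mean of at least 10 over the 6 libraries, with Benjamini-Hochberg adjustment over all genes tested at 0.05. Normalized counts are not counts, so edgeR 4.0.16 and DESeq2 1.42.0 on the recovered reads served as alternatives, with other scalings, pseudocounts, filters, thresholds, left-out libraries, the authors' deposited p-values and a replicate block. The difference between ages was the interaction term of 1 limma fit of all 12 libraries, since both tables were normalized together (the deposited base mean equals the mean of the 12 libraries within a relative gap of 6.52e-09). With 3 libraries a group an exact permutation test cannot go below a two-sided p of 0.1, so none was used for single genes. Values with ± are means and SDs over 3 libraries. Steps were tested on simulated data.

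The members and lists were chosen with earlier results of these data known. Genes named are Smo, Gli1, Ptch1, Hhip, the 15 largest called changes in each direction with a mean of at least 50, up to 4 called members and the nearest uncalled member of each list, plus the 5 called genes per direction whose effects differ most between ages. Other genes named were chosen after their values were seen. Values of some of these genes are left out here. Leaving out P28 libraries was an alternative chosen after seeing the data. Promoters came from RefSeq (GRCm38.p6), matched by symbol.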

Additional observations from a re-analysis of the deposited data

Results flagged for a closer look

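Of the genes picked by the naming rule, 32 had a Smo* effect that differed between P20 and P28 by the interaction term of limma on 12 libraries. Among all tested genes 4.72% did. The rule itself took in genes for a difference between ages that had passed, and many others for a P20 effect. The count of 32 is thus partly set by the choice and is a description, not to be weighed against that share. Values are the P20 effect minus the P28 effect on the log2 scale, with sign, so a gene that fell less at P20 also counts as higher. Age, sex and labelled stage differ together between the ages, and their parts cannot be told apart.

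The effect was higher at P20 for Galnt3 (5.49, SE 0.44, limma adjusted p = 7.96e-05), Scn4b (4.80), Hhip (4.26), Syt6 (4.25), Ptprz1 (4.02), Scube3 (3.99), Ajap1 (3.71), Frzb (3.45) and Kcnd3 (3.11). It was also higher for Alx4 (2.91), Adamts18 (2.59), Cxcl14 (2.48), Adamts9 (2.45), Adamts7 (1.81), Myocd (1.64), Col13a1 (1.63), Igfbp4 (1.55), Wnt5b (1.03) and Apcdd1 (0.80). For Grm7 the fitted difference was 6.63 (limma adjusted p = 0.0384), but WT was at 0 in 2 of the 3 P20 libraries, so the size depends on the pseudocount. Scn4b, a sodium channel subunit, stood at 76.9, 108 and 142 in P20 WT and 269, 407 and 254 in P20 Smo*, where it did not pass (limma adjusted p = 0.0609), and had -3.29 at P28 (limma adjusted p = 0.00174). Ptprz1, a receptor phosphatase, stood at 165, 156 and 242 in WT and 831, 589.7 and 412 in Smo* at P20 (log2 fold 1.67 with SE 0.28, adjusted p = 0.0446 by limma). The chemokine gene Cxcl14 was lower at both ages without passing at P20, at -1.24 and -3.72.

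The effect was lower at P20 for Grm4 (-5.35, SE 0.79, limma adjusted p = 0.00349), Spock1 (-3.59), Dusp2 (-2.95), Stc2 (-2.93), Sema5a (-2.22), Ptgis (-1.78), Foxd1 (-1.72), Duox1 (-1.62), Ptges (-1.44), Mcf2l (-1.40), Insig1 (-1.18) and Chrd (-0.63). Foxd1 is the one of these that rose at both ages. Insig1, a brake on sterol synthesis, did not pass at P20 (-0.28) and had 0.90 at P28 (limma adjusted p = 0.0146). Of the genes named after their values were seen, Smoc1 (2.78), Fblim1 (2.45) and Emb (3.22) had a higher signed effect at P20 by the same test, and Shisa3 (-2.21) and Fndc1 (-1.11) a lower one (limma adjusted p up to 0.0327). Emb lay below 0 at both ages, at -1.25 at P20 and -4.47 at P28.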

How the results depend on the processing

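The count of 102 called genes stayed within 1.5 times under TMM scaling, quantile normalization, a pseudocount of 0.5 or 5, a minimum mean of 50 or none, a robust fit, limma on 12 libraries, edgeR and a 2-fold minimum (77 to 125). It was 480 with DESeq2 on the recovered reads (257 higher, 223 lower), 342 with the authors' deposited adjusted p, 224 at an adjusted p of 0.1, and 9 both at 0.01 and without a variance trend. With 1 P20 library left out it ranged from 8 to 129. Of the 102, edgeR also called 91, DESeq2 called 102, and 92 were called in the authors' deposited table, in the same direction. Those not called there include Ptprz1 (authors' deposited adjusted p = 0.553), Epha7 (0.328), Frzb (0.271), Spon1 (0.123), Emb (0.0767) and Fndc1 (0.0603). Duox2 had no adjusted p there. With the replicate block of nearest title numbers the count was 239, and 20 named genes gained a call (Dpp4, Kdr, C1qa, Pparg, Klf2, Sost, Ccn2, Sox4, Stra6, Grm7, Sema3d, Opcml, Col13a1, Gpc1, Adam12, Chst11, Pgr, Ptges, Rasd1 and Cxcl14, limma adjusted p 0.0111 to 0.0497). Under it 7 chemokine, interleukin and complement genes were lower in place of 1, 5 secreted Wnt inhibitors higher in place of 2, and 2 endothelial markers and 1 adipocyte marker higher in place of 0. The labels do not say what the title numbers mean, and no number is shared. Deviations from the group means correlated at 0.227, 0.128 and 0.289 for the 3 pairs of nearest numbers and at 0.0134 or less for the other 6. Each library thus correlated best with its nearest number, a hint from the data and not from the design. Deviations within a group sum to 0, so the low values of the other 6 follow in part from the higher ones and add little. The count of 698 genes that differed between ages was 1987 with a z value from the 2 separate fits and ranged from 254 to 922 with 1 of the 12 libraries left out. The cause of these shifts was not tested. Leaving out P28 libraries moved the 34 shared increases between 26 and 41 and the 7 shared decreases between 5 and 9. With edgeR the calls of Gli1, Kcnd3, Col2a1, Col12a1, Adamts15, Clstn2 and Duox2 were lost (adjusted p 0.0517 to 0.0559), and under quantile normalization those of Syt6, Cntn3, Alx4, Frzb, Epha7, Spon1 and Limch1, among others (limma adjusted p 0.0523 to 0.0860). List medians near 0 changed sign with the setting, among them those of Wnt ligands and receptors, Wnt/beta-catenin targets, glutamate and GABA receptors, retinoid genes and ADAM proteases. None of the 59 named genes that were called changed sign in any setting run. Depth limits genes such as Shh, Grm7 and Foxl2, where 1 read is worth about 1 normalized count.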

Other observations

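Of the genes in no list, several of the largest increases started from WT levels near the floor. Calca, which encodes calcitonin and the peptide CGRP, stood at 2.26, 4.16 and 2.89 normalized counts in WT and 34.1, 95.0 and 50.2 in Smo* (log2 fold 3.79 with SE 0.53, adjusted p = 0.0265 by limma). Tmem171 stood at 2.26, 1.04 and 2.89 in WT and 44.4, 32.2 and 35.6 in Smo* (log2 fold 3.69 with SE 0.53, adjusted p = 0.0290 by limma). Shisa3, described as an inhibitor of Wnt and FGF receptors, stood at 50.9, 87.4 and 125 in WT and 517, 381 and 560.4 in Smo* (log2 fold 2.53 with SE 0.32, adjusted p = 0.0184 by limma), and at P28 its fold change was larger (4.74, difference -2.21, limma adjusted p = 0.0327). Cxcr4, a chemokine receptor, rose from 727, 459 and 674 in WT to 1268, 1816 and 1627 in Smo* (log2 fold 1.35 with SE 0.20, adjusted p = 0.0325 by limma), and Npr3, a receptor that clears natriuretic peptides, from 131, 149 and 141 in WT to 477, 342 and 409 in Smo* (log2 fold 1.53 with SE 0.18, adjusted p = 0.0150 by limma). These genes were chosen after their values were seen. Of the 6 fits with a library left out, Npr3 kept its call in 5, Shisa3 in 4, Calca in 2, and Tmem171 and Cxcr4 in 1. The Tmem171 call was lost under quantile normalization (limma adjusted p = 0.0545).

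On the lower side Fndc1, a secreted fibronectin domain protein, had the smallest called decrease, at 14829, 14422 and 14848 in WT and 9547, 9330.4 and 9494 in Smo* (log2 fold -0.64 with SE 0.09, adjusted p = 0.0306 by limma). The integrin gene Itga2 stood at 327, 324 and 347 in WT and 160.1, 139 and 133 in Smo* (log2 fold -1.20 with SE 0.16, adjusted p = 0.0225 by limma), and the small GTPase gene Rhob at 20436, 20743 and 20359 in WT and 9851, 13777 and 11550.5 in Smo* (log2 fold -0.82 with SE 0.14, adjusted p = 0.0446 by limma). Emb, an immunoglobulin family adhesion protein, fell from 295, 362 and 362 in WT to 132, 129 and 165 in Smo* (log2 fold -1.25 with SE 0.18, adjusted p = 0.0290 by limma) and had -4.47 at P28 (difference 3.22, limma adjusted p = 0.00903). These 4 were likewise chosen after their values were seen, and in the same 6 fits Itga2 kept its call in 2, Fndc1 and Emb in 1 and Rhob in 0. The Rhob call was also lost with edgeR (adjusted p = 0.0576), and under quantile normalization both Rhob (limma adjusted p = 0.172) and Fndc1 (0.0697) lost theirs.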
